A study of Mus musculus with 6 samples.

Results

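The genes described here are 46 genes of the glutathione, thioredoxin and antioxidant systems. They were read by symbol from a table of 18518 mouse gene symbols, and all 46 had a row. The table gives transcript levels from RNA sequencing of E14Tg2A cells, an established mouse embryonic stem cell line, in 3 libraries of wild-type cells (genotype label WT) and 3 libraries of cells with a Bach1 knockout (genotype label BACH1-KO). Both genotypes were kept for 2 days in serum medium with murine leukemia inhibitory factor (mLIF) at 200 units per ml, the cytokine that sustains self-renewal of these cells. The knockout was made with CRISPR/Cas9 by transient transfection of a LentiCRISPR V2 plasmid, puromycin selection and sorting of single cells into clones. The labels do not say how many clones the BACH1-KO libraries come from, nor whether the WT cells went through transfection and selection, so differences between clones and effects of the knockout cannot be told apart. They also do not say that the libraries of a genotype are separate cultures, so p-values reflect library-to-library spread that may be technical.

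Glutathione is a small thiol peptide that cells build from glutamate, cysteine and glycine. Glutathione peroxidases use it to reduce peroxides, glutathione transferases attach it to reactive compounds, and glutathione reductase returns the oxidised form to the thiol with NADPH. Thioredoxin, its NADPH-dependent reductase and the peroxiredoxins form a parallel thiol system, while superoxide dismutases and catalase act on superoxide and hydrogen peroxide directly. Many of these genes carry antioxidant response elements, where the activator NRF2 and the heme-binding repressor BACH1 compete for partnership with small MAF proteins.

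Levels are in FPKM, which scales fragments by transcript length and by the total of the library, so a value is a share of its library per unit of transcript length. The 6 libraries summed to between 762745 and 805118 FPKM over all genes. The 10 embryonic stem cell marker genes had summed levels of 10525 to 11298 FPKM in WT libraries, against 6784 to 7034 in BACH1-KO ones. Most of the sum came from Dppa5a, which fell from 6606 ± 463 to 4284 ± 134 FPKM. Tdgf1 fell from 1129.7 ± 71.97 to 242 ± 6.82 FPKM. Of the 10 genes, 8 were lower and 2 higher, where 39.7% of all tested genes were lower and 37.3% higher. Nanog rose from 298 ± 3.96 to 313 ± 3.68 FPKM and Sall4 to 1.32 times its WT mean. Pou5f1, Sox2 and Esrrb, among the lower ones, stood at 0.809, 0.682 and 0.610 times their WT means. Of 14 fibroblast feeder markers, 5 were expressed enough to test, 1 higher and 3 lower. The feeder markers summed to 205 to 225 FPKM across WT libraries and 74.3 to 76.1 across BACH1-KO ones, most of it from Vim, which fell from 186 ± 9.31 to 54.9 ± 1.35 FPKM. Thy1 fell from 18.8 ± 0.550 to 10.2 ± 0.190 FPKM and Pdgfrb from 3.78 ± 0.195 to 1.31 ± 0.187 FPKM, whereas Fbln2 rose from 1.10 ± 0.0980 to 2.06 ± 0.158 FPKM. The markers too low to test went both ways. Col3a1 was listed at 0 in every WT library and averaged 0.102 ± 0.0298 FPKM in BACH1-KO. Dcn went from 0.0664 ± 0.0806 to 0.764 ± 0.0944 FPKM and Col1a1 from 0.649 ± 0.0884 to 0.264 ± 0.0946 FPKM. Transcripts typical of hepatocytes, a liver cell type that the labels do not name, separated the genotypes. Summed, the 28 hepatocyte markers ranged over 13.0 to 23.1 FPKM among WT libraries, against 1206 to 1247 among BACH1-KO ones. All 28 were called higher in BACH1-KO, but the median of their WT means was 0.112 FPKM. Most met the level for testing only through BACH1-KO, so the count was largely set by the filter. The list was also chosen with earlier results of these data known. Albumin (Alb) stood at 0.721 ± 0.658 FPKM in WT and 468 ± 5.91 FPKM in BACH1-KO, while Apoh and Cyp3a11 were listed at 0 in every WT library. Erythroid transcripts summed to 0.514 to 1.96 FPKM among WT libraries, against 11.3 to 14.2 among BACH1-KO ones. Hba-a1 rose from 0.610 ± 0.672 to 6.94 ± 0.241 FPKM and Hbb-b1 from 0.128 ± 0.222 to 3.59 ± 1.63 FPKM. Both met the level for testing only through BACH1-KO. Of the genes too low to test, most had a higher mean in BACH1-KO. Hbb-y was lower, at 0.134 ± 0.117 FPKM in WT and 0.0638 ± 0.110 FPKM in BACH1-KO, and the genotypes overlapped for Slc4a1 and Hba-x. In bulk RNA, fewer cells of a type and less RNA per cell cannot be told apart.

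Genes averaging 1 FPKM or more across all 6 libraries were tested on the log2(FPKM + 1) scale with limma, and 43 of the 46 members met that level. Log2 fold changes subtract WT from BACH1-KO on this scale, which understates the change of low genes. SE is the moderated standard error. A gene is said to have risen or fallen where its Benjamini-Hochberg adjusted p over all 12187 tested genes was under 0.05. Fold values in times are plain ratios of the mean FPKM. Means are given ± SD with n = 3 libraries per genotype, and values in single libraries follow the order of the table's columns.

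**Figure D1:**
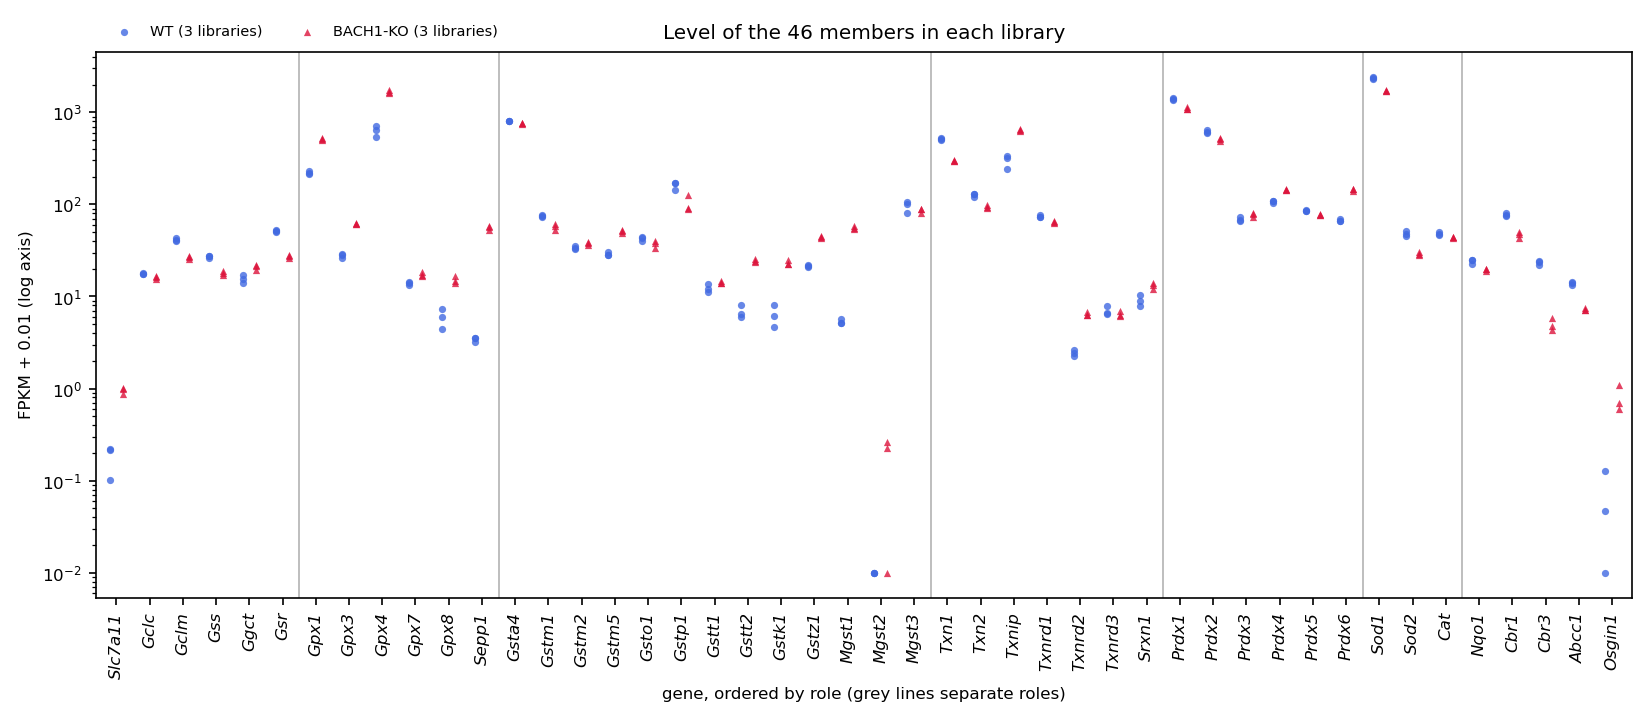
FPKM + 0.01 on a log axis for each of the 46 members (x axis, by role), with WT libraries as blue circles and BACH1-KO libraries as red triangles, 3 each. Levels run from Mgst2, listed at 0 in WT, to Sod1 at 2373 FPKM on average in WT, and for Sepp1 and Mgst1 the BACH1-KO means are 16.5 and 10.5 times the WT means.

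The antioxidant genes did not move as a block: 20 members rose in BACH1-KO, 21 fell and 2 did not pass, where 37.3% of all tested genes rose and 39.7% fell. The 41 called members are 95.3% of the 43 tested, where 77.0% of all tested genes were called. Among genes averaging 10 FPKM or more, where most members lie, the shares were 40 of 41 members and 80.2% of all such genes. The libraries of the 2 genotypes did not overlap for 40 of the 43 members, against 79.3% of all tested genes.

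Changes of 1.5-fold or more were found in either direction. At least a 1.5-fold change on the log2(FPKM + 1) scale with an adjusted p under 0.05 was seen for 21 members (48.8%), where the share over all tested genes was 30.9%. Of these members 13 rose, against 17.0% of all tested genes, and 8 fell, against 13.9%. The median log2 fold change of the members was -0.11 and that of all genes -0.01; the median size without sign was 0.57 and 0.38. Tested against a fold change of 1.5 in place of 0, 13 members stayed past the threshold as higher and 4 as lower, namely Gsr, Txn1, Cbr3 and Abcc1. By role, all 6 members of the group of glutathione peroxidases and Sepp1 rose. The 3 superoxide dismutase and catalase genes and the 4 tested reductase and efflux genes fell. Counts by role, here and below, cover few genes. They are to be set beside all tested genes, of which 77.0% were called, 37.3% higher and 39.7% lower.

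**Figure D2:**
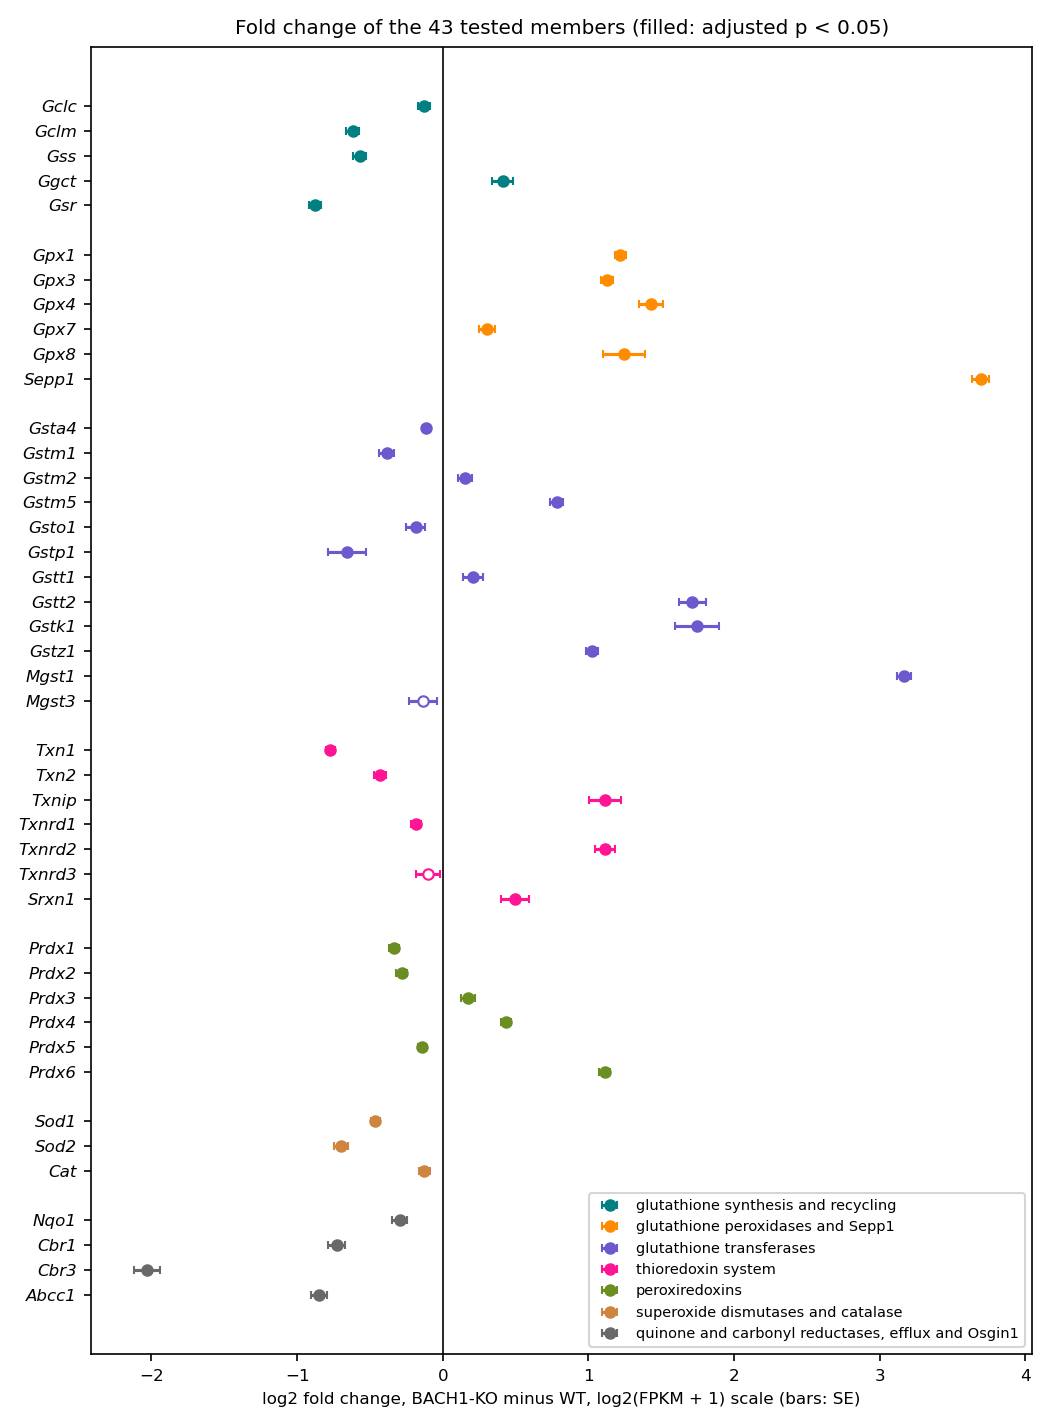
Log2 fold change (BACH1-KO minus WT, log2(FPKM + 1) scale) of the 43 tested members by role, with SE bars; filled points passed an adjusted p of 0.05 and open points did not. Sepp1 (3.69) and Mgst1 (3.17) are farthest to the right and Cbr3 (-2.03) farthest to the left.

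Transcripts of all 5 glutathione peroxidase members rose in BACH1-KO, 4 of them by more than 2 times. Gpx4, the peroxidase that reduces lipid hydroperoxides in membranes and guards against ferroptosis (chr10:80047166-80056439, mm10), measured 544, 638 and 703 FPKM in WT and 1639.9, 1764 and 1657 FPKM in BACH1-KO. Its libraries did not overlap, the lowest BACH1-KO library lying more than 2 times above the highest WT library, and the log2 fold change was 1.43 ± 0.08 (SE, adjusted p = 1.61e-06). Gpx1, the major cytosolic peroxidase (chr9:108338903-108340343), was at 214, 220.5 and 229.6 FPKM in WT and 506, 530.1 and 513 FPKM in BACH1-KO, again with no overlap (log2 fold change 1.22, SE 0.04, adjusted p = 5.81e-08). The share of Gpx4 in the summed FPKM of these 5 members was 69.9 ± 2.12% in WT and 73.4 ± 0.289% in BACH1-KO. The family as a whole did not move one way. Gpx2, a peroxidase best known from the gut epithelium and not among the 46 members, was at 18.0, 15.7 and 16.0 FPKM in WT and 4.73, 6.74 and 5.78 FPKM in BACH1-KO, a log2 fold change of -1.39 ± 0.11 (SE, adjusted p = 7.42e-06), and its groups did not overlap. Gpx6, likewise outside the members, rose from 1.29 ± 0.131 to 2.78 ± 0.328 FPKM, a log2 change of 0.72 ± 0.09 (SE, adjusted p = 1.31e-04). Both were named after their values were seen.

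The remaining peroxidase members were less abundant. The hepatocyte and erythroid markers were higher in the same 3 libraries as these members, and their part in the values was not tested. Gpx3, a secreted plasma peroxidase, measured 26.5, 28.3 and 29.1 FPKM in WT and 61.5, 63.0 and 62.0 FPKM in BACH1-KO, a log2 fold change of 1.13 ± 0.04 (SE, adjusted p = 1.60e-07). Gpx8, a peroxidase of the endoplasmic reticulum membrane, was at 7.23, 6.01 and 4.39 FPKM in WT and 14.5, 16.8 and 13.9 FPKM in BACH1-KO (log2 fold change 1.24, SE 0.14, adjusted p = 8.41e-05). Its WT libraries were spread widely, yet the highest of them was below every BACH1-KO library. Gpx7, its soluble relative in the endoplasmic reticulum, rose less, from 13.9 ± 0.560 to 17.4 ± 1.01 FPKM, a log2 change of 0.30 ± 0.05 (SE, adjusted p = 0.00113). With Prdx4, described below, the 3 peroxidases of this compartment among the members all rose; this grouping was made after the values were seen.

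Gpx1, Gpx3 and Gpx4, the thioredoxin reductases and selenoprotein P (Sepp1) are selenoproteins, in which the codon TGA (UGA in the RNA), elsewhere a stop, is read as selenocysteine. The annotation marks such codons in 7 of the 46 members. The stretch around the first one in each, from GENCODE vM21 transcripts on GRCm38 (the assembly of mm10), is shown because these genes share this feature and not their direction; capitals mark the selenocysteine codon, and the sequence runs 5′ to 3′ on the plus strand.
Gpx1: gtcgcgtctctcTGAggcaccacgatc
Gpx3: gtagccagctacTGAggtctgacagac
Gpx4: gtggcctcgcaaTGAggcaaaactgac
Sepp1: cttcaagccagcTGAtacttgtgtctt
Txnrd1: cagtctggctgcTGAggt
Txnrd2: gtgactggttgcTGAggc
Txnrd3: cagaaaggctgcTGAggc

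Codon numbers are for the transcript with the longest coding sequence of each gene and depend on that choice. In the peroxidases the selenocysteine codon is codon 47 of 201 in Gpx1 (chr9:108339451-108339453) and codon 129 of 253 in Gpx4 (chr10:80054737-80054739). In the reductases it is the last codon but 1, with 1 codon after it. Sepp1 has 10 such codons, the first at codon 59 of 380. Gpx7 and Gpx8 have none in the annotation. Of the 7 selenoprotein members 5 rose, Txnrd1 fell and Txnrd3 did not pass. Called were 85.7% of them, against 77.0% of all tested genes, of which 37.3% rose and 39.7% fell.

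Sepp1, which encodes the secreted selenium carrier selenoprotein P (chr15:3268547-3280508), had the highest fold change of all members. It measured 3.50, 3.16 and 3.53 FPKM in WT and 52.4, 56.9 and 58.4 FPKM in BACH1-KO, 16.5 times higher in BACH1-KO, with a log2 fold change of 3.69 ± 0.06 (SE, adjusted p = 6.97e-09). Sepp1 is known as an abundant transcript of hepatocytes. The hepatocyte markers described above were higher in the same 3 libraries, with the apolipoprotein gene Apoa1 at 0.947 ± 0.504 FPKM in WT and 83.8 ± 0.802 FPKM in BACH1-KO, and their part in the Sepp1 values was not tested. In the annotation 15.4% of its exonic bases also lie in exons of Ccdc152 on the opposite strand, and whether the authors counted by strand is not given in the sources used here.

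Genes of glutathione synthesis and recycling were mostly lower in BACH1-KO: of 5 tested members 4 fell and 1 rose. Over all tested genes 39.7% fell and 37.3% rose. Gsr, glutathione reductase (chr8:33652523-33698163), measured 50.9, 52.9 and 50.0 FPKM in WT and 28.3, 26.3 and 27.6 FPKM in BACH1-KO (log2 fold change -0.88, SE 0.04, adjusted p = 4.92e-07). Gclm, the modifier subunit of glutamate-cysteine ligase, the rate-limiting enzyme of glutathione synthesis, was at 42.9, 40.4 and 40.7 FPKM in WT and 27.2, 25.4 and 27.0 FPKM in BACH1-KO (log2 fold change -0.62, SE 0.04, adjusted p = 4.00e-06). The 2 genotypes did not overlap for either gene, and within each genotype the libraries lay close together.

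Gclc, the catalytic subunit of the same ligase, had a smaller log2 fold change than Gclm; the difference between the subunits was not tested. Its values were 17.7, 17.8 and 17.7 FPKM in WT and 15.5, 16.7 and 16.2 FPKM in BACH1-KO, a log2 fold change of -0.13 ± 0.04 (SE, adjusted p = 0.0232). Although the groups did not overlap, the call was lost without the second or the third WT library (adjusted p = 0.0581 and 0.0510) and without the first or the third BACH1-KO library (adjusted p = 0.0831 and 0.0573). Gss, glutathione synthetase, fell from 27.1 ± 0.667 to 17.9 ± 0.893 FPKM, a log2 change of -0.57 ± 0.05 (SE, adjusted p = 1.03e-05). Ggct, a gamma-glutamylcyclotransferase of glutathione breakdown, was the member of this group that rose, from 15.5 ± 1.45 to 20.9 ± 1.17 FPKM, a log2 change of 0.41 ± 0.07 (SE, adjusted p = 8.72e-04); it lies on chromosome 6, whose genes are described further on.

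Slc7a11, the cystine importer xCT that supplies cysteine for the pathway (chr3:49892526-50443614), was under 1 FPKM in every library and was not tested with the others. It measured 0.0927, 0.207 and 0.208 FPKM in WT and 0.995, 0.989 and 0.859 FPKM in BACH1-KO. All BACH1-KO libraries were above all WT libraries. Without the filter on low values limma gave 0.74 (SE 0.06, adjusted p = 5.98e-05) for its log2 fold change.

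The glutathione transferases split, with 7 members rising, 4 falling and 1 short of the threshold among 12, and their summed FPKM was nearly level, 1304 ± 22.4 in WT and 1287 ± 11.4 in BACH1-KO. That sum was dominated by Gsta4, an alpha-class enzyme known for conjugating the lipid aldehyde 4-hydroxynonenal. Gsta4 held 62.4 ± 0.992% of the summed FPKM of the 13 transferase members in WT and 58.4 ± 1.29% in BACH1-KO and fell slightly, from 813 ± 1.08 to 752 ± 10.2 FPKM, a log2 change of -0.11 ± 0.03 (SE, adjusted p = 0.00441). Under quantile normalization its direction turned (log2 fold change 0.10, adjusted p = 0.00977).

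The 5 transferases that rose by 1.5-fold or more had WT means of 5.31 to 29.2 FPKM. Mgst1, a microsomal transferase and peroxidase (chr6:138140316-138156755), measured 5.11, 5.14 and 5.68 FPKM in WT and 57.6, 54.9 and 54.3 FPKM in BACH1-KO, 10.5 times higher in BACH1-KO (log2 fold change 3.17, SE 0.05, adjusted p = 6.97e-09). Mgst1 is also abundant in hepatocytes, whose markers rose in the same libraries, and that contribution was not tested. Gstk1, a kappa-class enzyme of mitochondria and peroxisomes, was at 4.70, 8.16 and 6.19 FPKM in WT and 22.5, 24.6 and 22.6 FPKM in BACH1-KO (log2 fold change 1.75, SE 0.15, adjusted p = 1.35e-05). Gstt2, a theta-class enzyme, was at 6.48, 5.90 and 7.98 FPKM in WT and 23.5, 24.4 and 25.3 FPKM in BACH1-KO (log2 fold change 1.71, SE 0.09, adjusted p = 9.94e-07). No WT library reached the lowest BACH1-KO library for any of these 3 genes. Gstz1, which also acts as maleylacetoacetate isomerase in tyrosine breakdown, measured 21.4, 20.7 and 22.0 FPKM in WT and 43.1, 45.6 and 44.6 FPKM in BACH1-KO (log2 fold change 1.02, SE 0.04, adjusted p = 2.12e-07). The mu-class gene Gstm5 was at 28.5, 28.4 and 30.7 FPKM in WT and 51.3, 49.2 and 52.1 FPKM in BACH1-KO (log2 fold change 0.78, SE 0.04, adjusted p = 1.25e-06), and 13.9% of its exonic bases overlap an antisense gene.

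Mu- and pi-class genes had different directions. Gstm1 fell from 75.1 ± 2.12 to 57.3 ± 3.94 FPKM, a log2 change of -0.38 ± 0.05 (SE, adjusted p = 2.01e-04), whereas Gstm2 rose from 33.9 ± 1.57 to 37.8 ± 1.57 FPKM, a log2 change of 0.15 ± 0.05 (SE, adjusted p = 0.0193). The Gstm2 call was lost without the first (adjusted p = 0.0510) or second WT library (0.0517), without the second (0.0513) or the third BACH1-KO library (0.0739), and with median-of-ratios scaling (0.0635). Gstp1, the pi-class enzyme, measured 169, 145 and 173 FPKM in WT and 128, 89.8 and 92.4 FPKM in BACH1-KO (log2 fold change -0.66, SE 0.13, adjusted p = 0.00189). The first BACH1-KO library was well above the other 2 for this gene but still below every WT library. The mu, pi and theta families contain related copies. Where copies are near-identical they can share reads, which was not tested, so the split between such members is uncertain.

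Small or uncertain differences made up the rest of the family. Gstt1 rose from 12.2 ± 1.14 to 14.3 ± 0.377 FPKM, a log2 change of 0.21 ± 0.07 (SE, adjusted p = 0.0198), a call lost without the first (adjusted p = 0.0510) or the third WT library (0.0549) or the second BACH1-KO library (0.0669). Gsto1, an omega-class enzyme, was the called member whose groups overlapped, with 43.2, 44.7 and 39.9 FPKM in WT and 33.9, 40.1 and 38.0 FPKM in BACH1-KO (log2 fold change -0.19, SE 0.07, adjusted p = 0.0334). Its call was lost without the first (adjusted p = 0.0783) or second WT library (0.106) and without the first or the third BACH1-KO library (0.101 and 0.0580); without the first BACH1-KO library the log2 fold change was -0.12. Mgst3 stood at 80.1, 102 and 106 FPKM in WT and 88.7, 81.4 and 89.2 FPKM in BACH1-KO (log2 fold change -0.14, SE 0.10, adjusted p = 0.225) and did not pass. The first WT library was the lowest of the 6 for Mgst3, and without it the gene was lower in BACH1-KO (log2 fold change -0.26, adjusted p = 0.00193). Mgst2 was listed at 0 in every WT library and in the second BACH1-KO library, with 0.214 and 0.253 FPKM in the others.

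Of the members on chromosome 6, Mgst1, Gstk1 and Ggct rose and Txnrd3 did not pass. The 570 tested genes of that chromosome had a median log2 fold change of 0.32, and 59.6% of them were called higher; the medians of the other chromosomes ran from -0.12 to 0.09. Ggct, at 0.41, was near the chromosome's median, while Gstk1 (1.75) and Mgst1 (3.17) were far above it. Without the chromosome's members, 17 members rose and 21 fell. The part of the chromosome in these values was not tested.

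**Figure D3:**
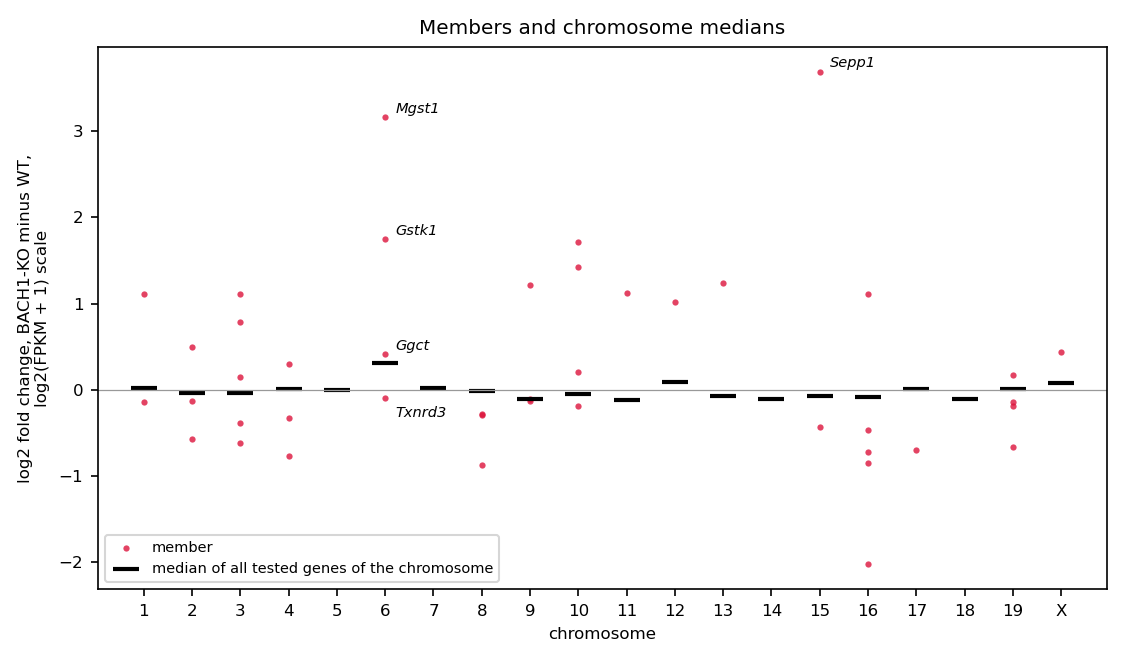
Log2 fold change (y axis, BACH1-KO minus WT, log2(FPKM + 1) scale) of each tested member as a red point by chromosome (x axis), with the median of all tested genes of that chromosome as a black bar. The bar of chromosome 6 is the highest at 0.32, and Mgst1, Gstk1 and Sepp1 lie far from the bars of their chromosomes.

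In the thioredoxin system the thioredoxins fell, while the inhibitor Txnip and the mitochondrial reductase rose, giving 3 higher, 3 lower and 1 not past among 7 tested members. Txn1, cytosolic thioredoxin (chr4:57943373-57956411), measured 507, 529 and 497 FPKM in WT and 302, 295 and 299 FPKM in BACH1-KO. Every BACH1-KO library was below every WT library, a log2 fold change of -0.77 ± 0.03 (SE, adjusted p = 2.59e-07). Txnip, which binds thioredoxin and also restrains glucose uptake (chr3:96557957-96561883), was at 242, 321 and 335 FPKM in WT and 630.1, 652 and 646 FPKM in BACH1-KO (log2 fold change 1.11, SE 0.11, adjusted p = 2.73e-05). The first WT library was lower than the others for Txnip, and the groups did not overlap. An antisense gene, Gm15441, covers 19.4% of the exonic bases of Txnip.

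Txnrd1, the cytosolic and most abundant reductase, was at 72.4, 73.2 and 76.0 FPKM in WT and 63.0, 65.1 and 66.5 FPKM in BACH1-KO (log2 fold change -0.19, SE 0.04, adjusted p = 0.00154); under quantile normalization it was not called (adjusted p = 0.0766). Txnrd2, the mitochondrial reductase, measured 2.25, 2.40 and 2.64 FPKM in WT and 6.30, 6.21 and 6.73 FPKM in BACH1-KO (log2 fold change 1.11, SE 0.07, adjusted p = 2.17e-06). Its share of the reductase FPKM went from 2.92 ± 0.188% in WT to 8.25 ± 0.214% in BACH1-KO, so Txnrd1 remained the main form at 83.5 ± 0.445%. Txnrd3, a reductase with a glutaredoxin domain, was at 6.97 ± 0.790 FPKM in WT and 6.43 ± 0.421 FPKM in BACH1-KO (log2 fold change -0.10, SE 0.08, adjusted p = 0.298), not past the threshold; without the first WT library the log2 fold change was -0.02, and under quantile normalization it was called lower (-0.20, adjusted p = 0.0478). Txn2, mitochondrial thioredoxin, fell from 127 ± 4.63 to 94.0 ± 3.69 FPKM, a log2 change of -0.43 ± 0.04 (SE, adjusted p = 2.61e-05).

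Srxn1, sulfiredoxin, which repairs over-oxidised peroxiredoxins and is a well known NRF2 target (chr2:152105516-152111376), rose. It measured 10.5, 8.82 and 7.94 FPKM in WT and 12.1, 13.3 and 14.1 FPKM in BACH1-KO (log2 fold change 0.50, SE 0.10, adjusted p = 0.00159), with every BACH1-KO library above every WT library. The rise was not past a test against a fold change of 1.5.

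Peroxiredoxins were abundant in both genotypes, and their 6 members divided evenly into 3 higher and 3 lower. Prdx1, the leading cytosolic form (chr4:116685544-116700822), measured 1348, 1434 and 1396 FPKM in WT and 1085, 1129.6 and 1099 FPKM in BACH1-KO (log2 fold change -0.33, SE 0.03, adjusted p = 3.52e-05). It accounted for 59.6 ± 0.724% of the family's FPKM in WT and 53.7 ± 0.414% in BACH1-KO. Prdx2, the other abundant cytosolic form, fell from 616 ± 25.7 to 506 ± 17.1 FPKM, a log2 change of -0.28 ± 0.04 (SE, adjusted p = 2.78e-04), and Prdx5 from 85.4 ± 0.992 to 77.2 ± 1.14 FPKM, a log2 change of -0.14 ± 0.03 (SE, adjusted p = 0.00215). Neither was called under quantile normalization (adjusted p = 0.159 for Prdx2 and 0.691 for Prdx5). Across the alternative settings described below, the log2 fold change of Prdx1 ran from -0.38 to -0.08. Of the exonic bases of Prdx5, 19.1% overlap Trmt112 on the opposite strand.

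Prdx6, the peroxiredoxin that uses glutathione and also acts on phospholipids (chr1:161240112-161251219), had the largest change of the family. It was at 69.9, 65.6 and 65.7 FPKM in WT and 149, 141 and 148 FPKM in BACH1-KO, with no overlap and a log2 fold change of 1.11 ± 0.04 (SE, adjusted p = 1.12e-07). Its share of the peroxiredoxin FPKM went from 2.87 ± 0.187% to 7.10 ± 0.314%. Prdx4, the form of the endoplasmic reticulum, rose from 107 ± 3.14 to 145 ± 2.95 FPKM, a log2 change of 0.43 ± 0.03 (SE, adjusted p = 7.31e-06), and Prdx3, the mitochondrial form, from 68.9 ± 3.28 to 77.8 ± 3.52 FPKM, a log2 change of 0.17 ± 0.05 (SE, adjusted p = 0.00973). Mitochondrial forms, grouped after their values were seen, moved both ways: Prdx3 and Txnrd2 rose, while Txn2 and Sod2 fell.

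Both superoxide dismutases and catalase fell. Sod1, the copper-zinc enzyme of the cytosol and the most abundant member (chr16:90220754-90226329), measured 2323, 2361 and 2434 FPKM in WT and 1726, 1703 and 1734 FPKM in BACH1-KO (log2 fold change -0.46, SE 0.03, adjusted p = 2.83e-06). Sod2, the manganese enzyme of mitochondria (chr17:13006846-13040063), was at 50.9, 48.3 and 45.7 FPKM in WT and 30.7, 28.4 and 29.1 FPKM in BACH1-KO (log2 fold change -0.70, SE 0.05, adjusted p = 4.52e-06). Every BACH1-KO library lay below every WT library for these genes. For Sod1 the log2 fold change ran from -0.50 to -0.22 across the alternative settings. Cat, the peroxisomal catalase, changed little: it was at 49.9, 46.6 and 47.9 FPKM in WT and 43.0, 44.7 and 44.4 FPKM in BACH1-KO (log2 fold change -0.13, SE 0.04, adjusted p = 0.0150), a call lost without the first BACH1-KO library (adjusted p = 0.0541) and under quantile normalization (0.368).

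All 4 tested members among the quinone and carbonyl reductases and the exporter Abcc1 fell. Cbr3, a carbonyl reductase (chr16:93683215-93690990), had the largest fall of the 46 members, with 23.7, 21.7 and 24.1 FPKM in WT and 5.79, 4.75 and 4.32 FPKM in BACH1-KO, 4.68 times lower and a log2 fold change of -2.03 ± 0.09 (SE, adjusted p = 3.99e-07). Its neighbour Cbr1 (chr16:93605853-93610505) was at 75.6, 77.1 and 81.3 FPKM in WT and 42.9, 47.4 and 49.9 FPKM in BACH1-KO (log2 fold change -0.73, SE 0.06, adjusted p = 7.76e-06). Abcc1, which exports glutathione conjugates, measured 13.2, 14.0 and 14.4 FPKM in WT and 7.16, 7.51 and 7.05 FPKM in BACH1-KO (log2 fold change -0.85, SE 0.05, adjusted p = 2.17e-06). The genotypes did not overlap for any of the 3 genes.

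Nqo1, the quinone reductase often read as a marker of NRF2 activity (chr8:107388225-107403206), fell less. It was at 22.3, 24.8 and 25.0 FPKM in WT and 18.7, 19.6 and 19.8 FPKM in BACH1-KO, a log2 fold change of -0.30 ± 0.05 (SE, adjusted p = 0.00106). Osgin1, an oxidative stress induced growth inhibitor, was too low to test with the others. It measured 0.116, 0 and 0.0365 FPKM in WT and 1.10, 0.596 and 0.696 FPKM in BACH1-KO, and without the filter limma gave 0.76 (SE 0.11, adjusted p = 7.93e-04). Cbr1, Cbr3, Abcc1, Sod1 and Txnrd2 lie on chromosome 16, where the median log2 fold change of the tested genes was -0.08.

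**Figure D4:**
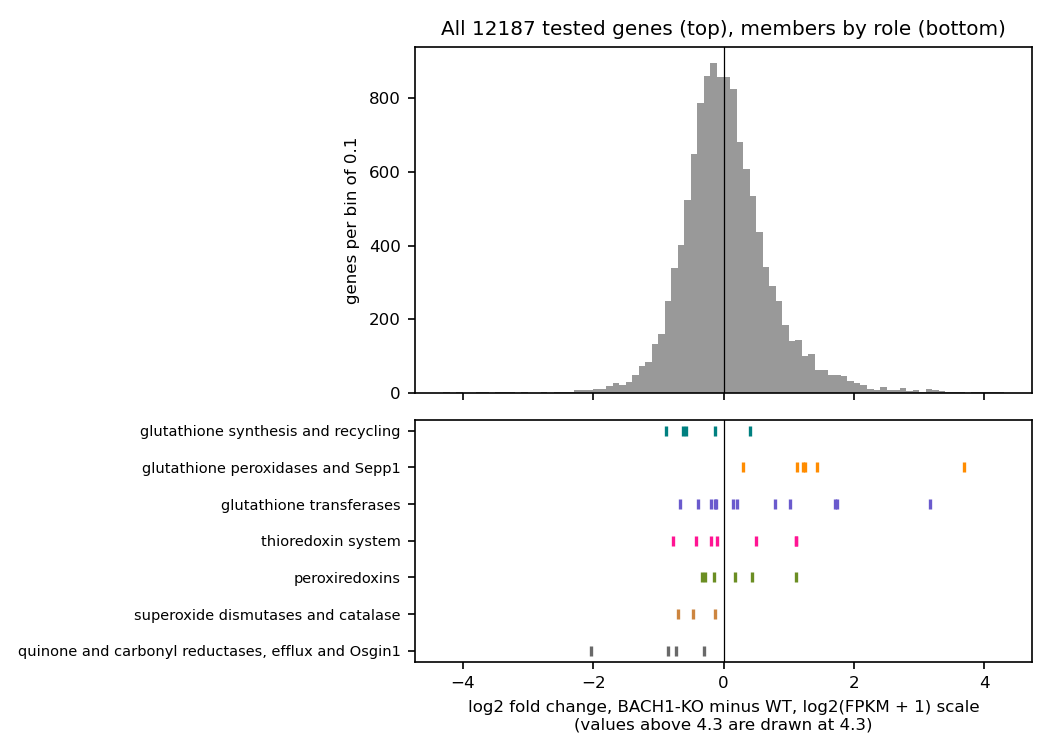
Histogram of the log2 fold change (BACH1-KO minus WT, log2(FPKM + 1) scale) of all 12187 tested genes in bins of 0.1, with values above 4.3 drawn at 4.3 (top), and 1 tick per tested member by role (bottom). The median of all genes is -0.01; the peroxidase and Sepp1 ticks all lie right of 0, and the dismutase, catalase, reductase and efflux ticks all lie left of it.

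Promoter letters were searched because the members are known for antioxidant response elements. RefSeq promoter windows of 300 bases (250 before to 50 after each start, GRCm38.p6) were at hand for 40 of the 46 genes and were searched on both strands. The core TGACNNNGC was in at least 1 window of 8 of the 40 members (20.0%) and of 14.0% of all 27025 genes with a window. Of the 8, 4 rose (Srxn1, Mgst1, Gstm5 and Ggct) and 4 fell (Gclm, Prdx1, Sod1 and Txnrd1). The AP-1 letters TGAGTCA, which overlap the core in some places, were in 6 of the 40 members (15%) and 5.95% of all genes. The BACH1 and MAF element was searched only in the form with TGC directly before the AP-1 letters. This form was in 0 of the 40 members and 0.167% of all genes. At so low a share, 0 of 40 does not set the members apart. In Osgin1 and Gstp1, TGC stands directly before the reverse complement of the AP-1 letters, on the opposite strand in Gstp1. The search did not cover that form, and its share of all genes was not counted. Letters alone say nothing of binding, and elements farther from the start are outside the windows.

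A pair of stretches is shown for genes of opposite direction, Srxn1 that rose and Prdx1 that fell, with TGAGTCA in capitals. They are followed by the ATF4 composite element TGATGNAA in capitals, as its reverse complement TTNCATCA in the last stretch, found in 4.51% of all genes and, among the members, in Slc7a11, where it occurs on both strands. The sequences read 5′ to 3′ on the gene's strand, plus for Srxn1 and Prdx1 and minus for Slc7a11.
Srxn1, chr2:152105469-152105495: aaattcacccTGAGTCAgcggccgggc
Prdx1, chr4:116685458-116685484: gggaaagcgcTGAGTCAtcccccgtag
Slc7a11, chr3:50443662-50443689: ctcatgtggcTGATGCAAacctggagaa
Slc7a11, chr3:50443643-50443670: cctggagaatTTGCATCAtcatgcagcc

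The Srxn1 stretch has its match 45 bases before the RefSeq start, and a further match on the same strand begins 102 bases before it. The Prdx1 match begins 131 bases before the start, with another on the opposite strand 237 bases before it. The Slc7a11 matches begin 66 and 47 bases before the start.

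Other genes of these pathways, from 7 lists outside the 46 members, were read from the same fit. Each list's count is to be set beside all tested genes, of which 77.0% were called, 37.3% higher and 39.7% lower. Breakdown of glutathione and supply of its amino acids gave 8 higher, 7 lower and 3 not past of 18 tested, 83.3% called and so near the share over all genes. The cyclotransferase Chac1, which cleaves glutathione, rose from 1.64 ± 0.507 to 171 ± 4.54 FPKM, a log2 change of 6.05 ± 0.13 (SE, adjusted p = 1.59e-08), Cth, which makes cysteine from cystathionine, rose from 58.2 ± 0.968 to 226 ± 6.32 FPKM and the neutral amino acid carrier Slc1a4 rose from 5.95 ± 0.270 to 47.9 ± 1.86 FPKM. Lap3, an aminopeptidase, fell from 261 ± 3.73 to 100.3 ± 2.63 FPKM. The median log2 fold change of this list was 0.07.

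Selenium handling and further selenoproteins were mostly higher in the libraries with the hepatocyte markers, whose part was not tested, with 11 rising, 5 falling and 1 not past of 17 tested (94.1% called) and a median log2 fold change of 0.49. Sepw1 rose from 32.1 ± 2.37 to 121 ± 2.85 FPKM, Selt from 32.7 ± 0.286 to 69.1 ± 0.687 FPKM, the selenophosphate synthetase Sephs2 from 56.4 ± 1.16 to 87.8 ± 0.922 FPKM and Vimp, an endoplasmic reticulum selenoprotein, from 32.6 ± 1.88 to 57.3 ± 0.708 FPKM. Among the 5 that fell, Sephs1 had the smallest adjusted p and went from 26.0 ± 1.14 to 15.1 ± 0.472 FPKM. The hepatic deiodinase gene Dio1 was not tested at its level and was named after its values were seen. Dio1 was listed at 0 in WT and was at 1.47 ± 0.114 FPKM in BACH1-KO.

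The list named NADPH supply, after the cofactor both thiol systems depend on, went mostly the other way. Of its 18 tested genes 13 fell and 5 rose (100% called), with a median of -0.38. Among the 5, Mthfd2 had the smallest adjusted p and rose from 38.7 ± 3.38 to 95.6 ± 3.02 FPKM. Not all enzymes of this list make NADPH, and ferredoxin reductase uses it. Fdxr, ferredoxin reductase, fell from 26.1 ± 0.502 to 8.30 ± 0.405 FPKM, the folate enzyme Mthfd1 from 116 ± 1.83 to 67.5 ± 0.707 FPKM, malic enzyme Me1 from 25.2 ± 0.630 to 9.73 ± 0.489 FPKM and Idh1, cytosolic isocitrate dehydrogenase, from 107 ± 1.13 to 61.8 ± 1.70 FPKM. Among BACH1, NRF2 and other target genes of both factors, 8 fell, 5 rose and 5 did not pass of 18 tested, 72.2% called and so no more often than all genes (median -0.06). Ugdh, UDP-glucose dehydrogenase, fell from 53.1 ± 1.00 to 17.6 ± 0.321 FPKM, Hmox1, heme oxygenase, from 353 ± 38.6 to 102 ± 3.45 FPKM, the biliverdin reductase Blvra from 20.7 ± 0.698 to 8.53 ± 0.351 FPKM and the ferritin heavy chain Fth1 from 1376 ± 23.4 to 929 ± 4.04 FPKM. The next by adjusted p, Nfe2l1, rose from 53.2 ± 0.477 to 80.8 ± 2.36 FPKM. Nfe2l2, which encodes NRF2, fell from 46.6 ± 0.464 to 37.2 ± 0.628 FPKM, a log2 change of -0.32 ± 0.03 (SE, adjusted p = 3.78e-05), Keap1, its inhibitor, was at 3.90 ± 0.279 FPKM in WT and 3.92 ± 0.421 FPKM in BACH1-KO (adjusted p = 0.964), and Bach1 transcript rose from 8.28 ± 0.266 to 10.4 ± 0.0719 FPKM, a log2 change of 0.30 ± 0.05 (SE, adjusted p = 5.15e-04); transcript level does not report on the edited sequence.

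Further glutathione enzymes and glutaredoxins split, with 9 of 20 tested genes rising, 10 falling and 1 not past (95.0% called). Gstm6 rose from 6.24 ± 0.380 to 13.9 ± 0.813 FPKM and Gstm4 from 6.68 ± 0.594 to 15.4 ± 1.29 FPKM, while the glutaredoxin Glrx fell from 22.3 ± 1.35 to 11.1 ± 0.628 FPKM and the prostaglandin synthase Ptges from 5.04 ± 0.0344 to 2.17 ± 0.103 FPKM. Thioredoxin-fold proteins and methionine sulfoxide reductases had 11 higher, 7 lower and 3 not past of 21 (85.7% called). Sesn2, a stress-induced sestrin, rose from 11.6 ± 0.582 to 40.6 ± 2.02 FPKM, the membrane oxidoreductases Tmx1 from 35.9 ± 1.41 to 62.9 ± 2.02 FPKM and Tmx3 from 20.3 ± 0.462 to 32.5 ± 0.630 FPKM, and nucleoredoxin (Nxn) fell from 45.1 ± 0.815 to 18.0 ± 1.24 FPKM. The list of other oxidant and ferroptosis genes gave 6 higher, 6 lower and 2 not past of 14 (85.7% called), with rises of Ogg1, a DNA glycosylase for oxidised guanine, from 7.36 ± 0.174 to 18.6 ± 0.545 FPKM, Ucp2 from 28.9 ± 1.26 to 56.3 ± 1.87 FPKM, Gch1 from 3.04 ± 0.386 to 10.4 ± 0.184 FPKM and Cyba, an NADPH oxidase subunit, from 43.8 ± 2.79 to 86.3 ± 3.76 FPKM. The next by adjusted p, the abundant Mt1, fell from 1063 ± 95.4 to 493 ± 11.2 FPKM.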

How the data were processed

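The deposited data are 1 table of FPKM by gene symbol. Cufflinks and the build mm10 appear in the submitters' processing notes; for the aligner, annotation, versions and strand setting nothing is given in the sources used here. FPKM carry no read counts, so absolute depth is unknown and no count test was run. Among values under 0.1 FPKM, which step by whole fragments, the commonest ratio between libraries gave relative depths of 1.00 to 1.10 for WT and 1.01 to 1.18 for BACH1-KO. Columns name the genotype but match no sample title, so each was used as an unpaired replicate. No pair of libraries shared more than 56 identical values among the 12187 tested genes. Another 23 rows carry a number in place of a symbol, hold 0.0987% of the FPKM and were left out.

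Log2(FPKM + 1) was fitted with limma 3.58.1 in R 4.3.3 (lmFit, eBayes with trend, two-sided, Benjamini-Hochberg over all tested genes), keeping genes that averaged 1 FPKM or more. Every adjusted p is from limma. The fit was tested on simulated data. Members and lists were chosen with earlier results of these data known. Full values are given for members past 0.05 with at least a 1.5-fold change and for 14 fixed genes. Of each list up to 4 genes with the smallest adjusted p are named, with some further genes, in part chosen after their values were seen. Positions are from GENCODE vM21, where 18264 symbols matched. Alternatives were another pseudocount, 2 other filters, 2 scalings, a constant prior variance, a test against a fold change of 1.5, and leaving out each library.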

Additional observations from a re-analysis of the deposited data

How the results depend on the processing

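Against a 1.5-fold minimum change, 2319 genes were called, 1325 higher and 994 lower, with 13 members higher and 4 lower and 25 pathway list genes higher and 23 lower; the stricter threshold itself sets these counts. With a filter at a mean of 5 FPKM 2942 genes were called higher, among fewer genes tested. Leaving out 1 library at a time gave 8798 to 9344 called genes, 18 to 20 members higher and 18 to 21 lower. Under quantile normalization 21 members were higher and 16 lower, Gsta4 reversed (log2 fold change 0.10), and 5 members lost their call; the cause was not tested. A pseudocount of 0.1 FPKM changed the call of 0 members, constant prior variance and the absence of a filter each ended the call of Gsto1, and median-of-ratios scaling that of Gstm2. Without the members on chromosome 6, an alternative chosen after seeing the data, 17 members were higher and 21 lower. No paired analysis was possible because the columns carry no number or batch that the labels tie to a sample. The filter kept out Slc7a11, Osgin1 and Mgst2, all with means under 1 FPKM; without it Slc7a11 and Osgin1 were called higher. Since FPKM carry no counts, what depth limits is unknown.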
